A study of Mus musculus with 1505 samples.

Results

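The genes of the AMPA receptor and of its best-known auxiliary subunits were followed across the neurons of mouse primary motor cortex. They were taken by name: the pore-forming subunits Gria1, Gria2, Gria3 and Gria4, the transmembrane AMPA receptor regulatory proteins (TARPs) Cacng2, Cacng3 and Cacng8, and the cornichons Cnih2 and Cnih3. These are 9 of the 42381 genes of the exonic count table made from cells recorded at 25 °C, and all 9 were in the table. The data are Patch-seq profiles: each neuron in an acute slice was recorded with a patch pipette, its contents were drawn into the pipette, and the RNA was sequenced by Smart-seq2, a full-length method without molecular identifiers. Of 1320 cells recorded at 25 °C, 1228 carried a transcriptomic type (t-type) in the labels, and 1165 of these fell in the 53 t-types with 5 or more cells. The t-types belong to 10 families. Inhibitory families were Pvalb (286 cells), Sst (272), Vip (152), Lamp5 (92) and Sncg (13). Excitatory families were IT (intratelencephalic, 253 cells), ET (extratelencephalic, named PT in the labels, 48), CT (corticothalamic, 83), L6b (24) and NP (near-projecting, 5).

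The mice were adults of both sexes, wild-type C57Bl/6 or carrying one of several Cre drivers (Viaat, Sst, Vip, Pvalb, Npy, Vipr2, Slc17a8 or Gnb4) with the Ai9 reporter, so which neurons were sampled followed partly from the driver. A further 185 cells were recorded at 34 °C with the blockers kynurenic acid (fast glutamatergic transmission) and picrotoxin (fast GABAergic transmission) in the bath. They came from Sst-Cre/Ai9 and Pvalb-Cre/Ai9 mice, with Sst and excitatory neurons of layer 5 as targets. The labels name no animal, so the cells of a group could not be divided into biological replicates. Every group is therefore 1 sample, and no test was run. Differences are given as values with the spread over cells. Ratios of these genes at 2-fold or more also have the number of recording dates on which they were seen. The dates were taken from the digits that open the name of each cell. Reading them as dates of recording is an assumption.

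AMPA receptors carry most fast excitatory transmission in the cortex. They are assemblies of 4 pore subunits, GluA1 to GluA4, encoded by Gria1 to Gria4, and the mix of subunits sets kinetics and calcium permeability: receptors that hold edited GluA2 pass little calcium, and receptors without it pass calcium. TARPs and cornichons bind the receptor, help it reach the synapse, and slow its deactivation or desensitization. Fast-spiking Pvalb interneurons are known for fast receptors with little GluA2, and pyramidal neurons for receptors rich in GluA2.

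The part of each pore subunit around the Q/R site, the codon in the channel lining that is recoded by RNA editing in GluA2, is shown because the share of Gria2 among the 4 subunits recurs in the results. Capitals mark the codon, flanked by 15 bases on each side, read 5′ to 3′ on the coding strand from GENCODE M21 transcripts (build GRCm38).
Gria1: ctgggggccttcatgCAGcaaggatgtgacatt
Gria2: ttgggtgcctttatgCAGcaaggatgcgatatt
Gria3: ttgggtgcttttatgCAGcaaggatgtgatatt
Gria4: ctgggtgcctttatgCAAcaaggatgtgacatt

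The Gria1 codon lies at chr11:57243094-57243096 on the plus strand in exon 11, and that of Gria2 at chr3:80706911-80706913 on the minus strand in exon 11. That of Gria3 lies at chrX:41610265-41610267 on the plus strand in exon 11, and that of Gria4 at chr9:4464137-4464139 on the minus strand in exon 12. Exons are numbered over all exons of the transcript. Over the 33 bases, Gria3 differs from Gria2 at 2 bases, Gria4 at 4 and Gria1 at 5. All 4 genomic codons encode glutamine, CAG in Gria1, Gria2 and Gria3 and CAA in Gria4. Counts per gene do not show which base a read carries there, so the amount of Gria2 RNA says nothing of its editing.

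Depth ranged from 2588 to 18172944 exonic reads per typed cell at 25 °C, with a median of 1267852, and 71 typed cells had fewer than 200000. Levels are given in CPM, the reads of a gene per 1000000 exonic reads: the reads of a group's cells were summed, without spike-ins, and then scaled. Their exact Poisson intervals cover the counting error of reads only. They are too narrow even for that, because PCR copies of a molecule are counted as separate reads. The exact binomial intervals of shares of cells treat cells as independent, although cells share recording dates and animals that the labels do not name. Neither kind of interval covers the spread between animals, and the Poisson intervals do not cover that between cells. Excitatory and inhibitory families matched the markers of their class. The list of 4 excitatory markers summed to 452 to 1151 CPM in excitatory families and 5.64 to 15.7 CPM in inhibitory families. The 4 inhibitory markers summed to 0.989 to 58.9 CPM in excitatory and 3232 to 10050 CPM in inhibitory families. Of the markers listed for single families, only Cux2, listed for IT, was higher in another, at 89.5 CPM in IT and 103 CPM in Pvalb. Some others separated little, such as Slc30a3 (168 CPM in IT, 154 CPM in Sst) and Syt6 (235 CPM in CT, 226 CPM in Sncg). The t-types were assigned by the authors from the same RNA, which ties every level by family or t-type to those labels. Recording dates were spread unevenly over families, with 1 of 83 CT cells and 6 of 152 Vip cells recorded before the last of the calendar years at 25 °C, against 165 of 253 IT cells.

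Among the pore subunits, Gria1 (GluA1, chr11:57011387-57330244) was highest in the Sst and Pvalb families. Pooled Gria1 was 1001 CPM in Sst (95% Poisson interval 998 to 1004) and 621 CPM in Pvalb. It was 355 CPM in Sncg, 352 CPM in L6b, 318 CPM in Vip, 297 CPM in ET, 284 CPM in IT and 263 CPM in CT. The lowest levels were in NP, at 181 CPM, and Lamp5, at 151 CPM. Single Sst cells ran from 0 to 5385 CPM with a median of 824 CPM, and single Lamp5 cells from 0 to 1864 CPM with a median of 13.01 CPM. The quartile ranges of these distributions did not meet, since the lower quartile of Sst cells was 395 CPM and the upper quartile of Lamp5 cells 201 CPM, although the full ranges overlapped. With each cell thinned to 200000 reads, 96.6% of 237 Sst cells (95% binomial interval 93.5 to 98.5%) and 56.7% of 90 Lamp5 cells (45.8 to 67.1%) had a Gria1 read.

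Gria2 (GluA2, chr3:80681450-80802835) was read in nearly every neuron. It was 3618 CPM in the 5 NP cells and 2290 CPM in ET, and between 679 CPM (Sncg) and 1582 CPM (Vip) in the other 8 families. Single ET cells ran from 399 to 7153 CPM with a median of 2007 CPM, so no ET cell was without Gria2. Single NP cells ran from 1004 to 5919 CPM with a median of 4230 CPM. After thinning, 87.5 to 100% of cells of every family held a Gria2 read. In the order of families, NP over ET was the only pair of neighbours, for any of the 9 genes, whose quartile ranges of cells did not overlap, and it rests on 5 NP cells.

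Gria3 (GluA3, X-linked, chrX:41400854-41678601) was high in Sst, at 470 CPM, and in CT (464 CPM), ET (438 CPM) and L6b (427 CPM). It was low in Vip, at 98.6 CPM. The Vip cells ran from 0 to 1611 CPM with a median of 0, and 36.2% of 149 thinned Vip cells had a Gria3 read, against 97.7% of 44 ET cells, whose median was 403 CPM. The quartile range of Vip cells ended at 39.6 CPM and that of ET cells began at 273 CPM, with overlap of the full ranges.

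Gria4 (GluA4, chr9:4417896-4796234), the subunit known from fast-spiking interneurons, was highest in Pvalb at 294 CPM and was followed by IT at 222 CPM, Sst at 190 CPM and NP at 187 CPM. It was lowest in ET at 26.3 CPM, Sncg at 42.7 CPM, L6b at 45.8 CPM and CT at 55.9 CPM. Pvalb cells ran from 0 to 1624 CPM with a median of 204 CPM, and 86.8% of thinned Pvalb cells had a read. ET cells ran from 0 to 204 CPM with a median of 8.85 CPM. The excitatory families thus did not form a single level for Gria4: IT lay between Pvalb and Sst, and ET, CT and L6b lay below Pvalb, Sst, Vip and Lamp5. For Gria4, as for the other members apart from that NP and ET pair, all neighbours in the order of families overlapped in their quartile ranges.

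**Figure D1:**
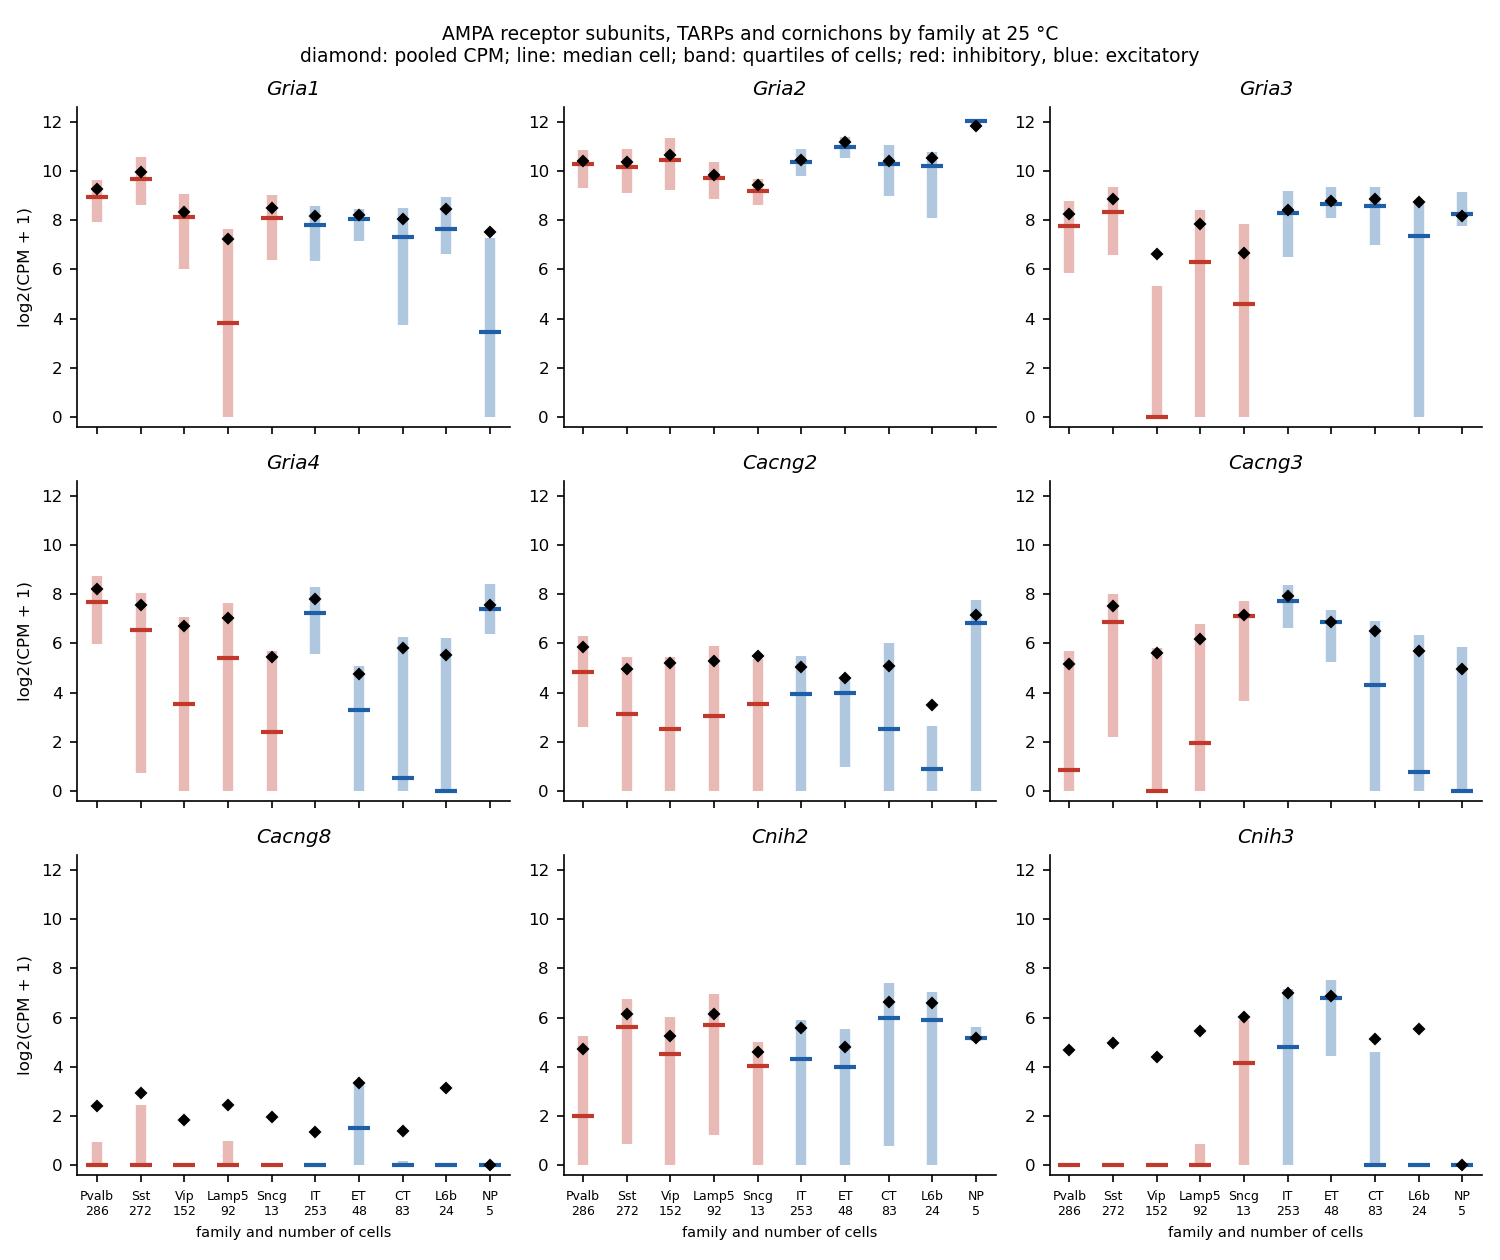
Level of each gene by family at 25 °C as log2(CPM + 1), with the pooled level as a diamond, the median cell as a line and the quartiles of cells as a band (red inhibitory, blue excitatory, numbers of cells under the names). Gria2 was at least 679 CPM in every family, Gria1 was highest in Sst at 1001 CPM, and Cacng8 was at most 9.08 CPM in any family.

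Since longer transcripts give more reads, shares among subunits were taken from reads per kb of exon. Gria2 held 72.4% of the 4 subunits' reads per kb in NP, 60.1% in ET and 56.3% in Vip. It held 43.4% in IT, 32.3% in Pvalb and 25.8% in Sst. Per kb of all annotated exons, Gria1 held 50.5% in Sst and 38.5% in Pvalb, where Gria4 held 17.5%. Of cells with at least 100 reads over the 4 genes, 87.1% of Sst and 83.2% of Pvalb cells had a Gria2 share below 50%, against 25% of ET cells, 39.01% of Vip cells and 66.4% of IT cells.

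These percentages depend on the length used, because the annotated exons of Gria2 sum to 15.5 kb and its longest transcript to 10.4 kb. With the longest transcript, the Gria2 share was 29.3% in Sst, 36.4% in Pvalb, 46.015% in IT, 61.6% in Vip and 60.8% in ET. With no length at all it was 44.2% in Sst, 52.3% in Pvalb, 62.2% in IT, 75.3% in Vip and 75.05% in ET. Sst was the lowest of these 5 families and Pvalb the next under all 3 definitions, and Vip and ET changed places. Whether Gria1 or Gria2 led turned with the length: with the longest transcript Gria1 was 41.7% in Sst, above Gria2, and 31.6% in Pvalb, below it, and with no length Gria1 was 33.6% and 24.2% and below Gria2 in both. All 4 subunits were read together in 208 of 273 thinned Pvalb cells, 172 of 240 IT cells and 151 of 237 Sst cells, but in 26 of 149 Vip cells.

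**Figure D2:**
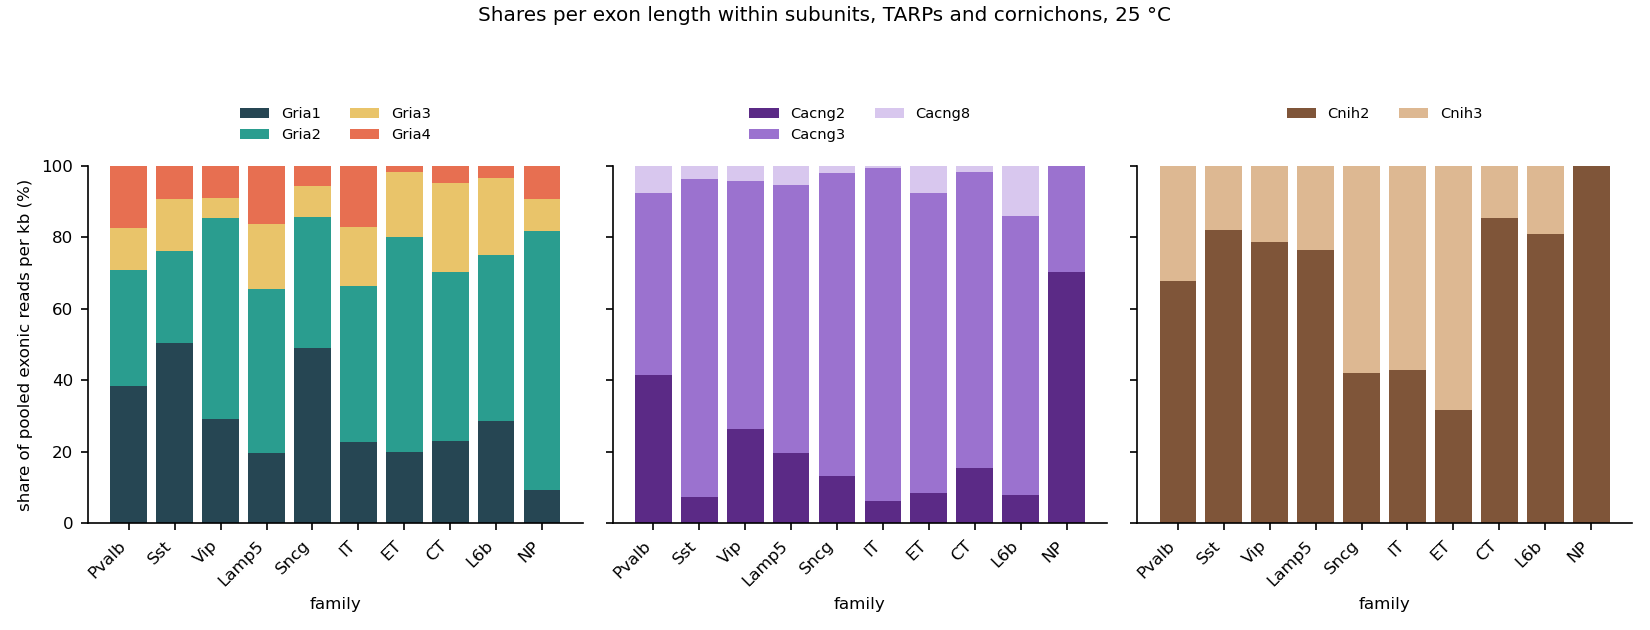
Share (%) of pooled exonic reads per kb within the 4 pore subunits, the 3 TARPs and the 2 cornichons in each family at 25 °C, as stacked bars from 0 to 100. On this scale Gria1 was 50.5% of the pore subunits in Sst (33.6%, and below Gria2, with no length correction), Cacng3 made up 93.1% of the TARPs in IT and 50.9% in Pvalb, and Cnih3 made up 68.3% of the cornichons in ET.

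Of the TARPs, Cacng3 (gamma-3, chr7:122670492-122769393) carried most of the reads and most of the variation. It was 240 CPM in IT, 183 CPM in Sst, 142 CPM in Sncg and 117 CPM in ET, and 35.005 CPM in Pvalb. IT cells ran from 0 to 1115 CPM with a median of 214 CPM, and 91.7% of 240 thinned IT cells had a Cacng3 read. Pvalb cells ran from 0 to 456 CPM with a median of 0.790 CPM, and 45.4% of 273 thinned cells had a read. Quartile ranges of IT and Pvalb cells did not meet, with 97.8 CPM as the lower quartile in IT and 51.1 CPM as the upper quartile in Pvalb.

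Cacng2 (gamma-2 or stargazin, chr15:77991748-78120028), the founding TARP, was 56.7 CPM in Pvalb and between 10.4 and 43.8 CPM in the other families apart from NP. The 5 NP cells pooled to 140 CPM, with 3 of them holding a read and a median cell of 113 CPM. Pvalb cells had a median of 27.5 CPM and a highest value of 686 CPM. Per kb of exon, Cacng2 was 41.6% of the 3 TARPs in Pvalb and 70.3% in NP, the families with the lowest Cacng3. In thinned Pvalb cells, 110 had a read of Cacng2 without Cacng3 and 22 the reverse, whereas in IT the counts were 12 and 71.

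Cacng8 (gamma-8, chr7:3390683-3415648), known as the hippocampal TARP, was near the limit of detection in exonic reads. It was at most 9.08 CPM, in ET, and its median cell was at 0 in every family but ET, where it was 1.86 CPM. No read was seen in the 5 NP cells, where 3 reads would have been 0.330 CPM. It lay below 10 CPM in 46 of 53 t-types and in every family, and was therefore not counted in the comparisons between families. In intronic reads of the 34 °C cells it was 64.9 CPM in Sst, 59.7 CPM in ET, 33.3 CPM in Pvalb and 12.3 CPM in IT.

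The cornichons were split between families. Cnih2 (chr19:5092868-5098521) was 98.5 CPM in CT, 96.4 CPM in L6b, 69.7 CPM in Sst and 68.9 CPM in Lamp5, and 25.7 CPM in Pvalb. CT cells ran from 0 to 604 CPM with a median of 62.5 CPM, and Pvalb cells from 0 to 507 CPM with a median of 2.95 CPM, with overlapping quartile ranges. Cnih3 (chr1:181352628-181460641) was 126 CPM in IT and 115 CPM in ET, and at most 63.2 CPM in the other families.

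Cnih3 was read in a larger share of ET cells than of any other family. ET cells ran from 0 to 466 CPM with a median of 110 CPM, and 81.8% of 44 thinned cells had a read. IT cells ran from 0 to 1272 CPM with a median of 26.6 CPM, and 54.6% of thinned cells had a read. In Pvalb, Sst, Vip, Lamp5, CT, L6b and NP the median cell was at 0. The 5 NP cells held no Cnih3 read, where 3 reads would have been 0.330 CPM. Among thinned cells, 138 Sst cells had a read of Cnih2 without Cnih3 and 7 the reverse, against 4 and 15 in ET.

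Within families, the t-types covered wide ranges. Gria1 was highest in Pvalb Gabrg1 (1494 CPM, 7 cells, 41.8% of reads from 1 cell) and Sst Pvalb Etv1 (1494 CPM, 8 cells, 29.3% from 1 cell). Sst Calb2 reached 1478 CPM in 61 cells, with 7.13% of reads from 1 cell and a median cell of 1490 CPM. At the other end, Lamp5 Egln3_1 had 2.73 CPM, 37 reads over 9 cells with a highest cell of 19.1 CPM. The lowest of the 8 Sst Pvalb Etv1 cells had 773 CPM, so those cells and the Lamp5 Egln3_1 cells did not overlap. As a share of the 4 subunits per kb, Gria1 ran from 0.514% in Lamp5 Egln3_1, where Gria2 held 89.2%, to 74.8% in Pvalb Gabrg1, and the lowest Gria2 share was 19.1% in Sst Calb2.

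Gria2 varied least across the 53 t-types, from 691 CPM in Sst Myh8_3 (9 cells) to 2308 CPM in Vip Gpc3 (26 cells) and 2333 CPM in L5 PT_4 (9 cells). It was over 100 CPM in 53 of 53 t-types, against 51 for Gria1, 38 for Gria3, 36 for Gria4 and 1 for Cacng2.

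Gria3 had its highest levels in Sst Etv1 (1072 CPM, 11 cells) and Sst Pvalb Etv1 (800 CPM, 8 cells) and its lowest in Vip Mybpc1_3, with 2 reads in 17 cells (0.0683 CPM). The other Vip t-types named here were chosen after their values were seen. Vip Htr1f had 0.427 CPM in 6 cells, and Vip Mybpc1_2 2.59 CPM in 33 cells, with a read in 9 of them. Vip Gpc3 had 310 CPM in 26 cells, of which 22 held a read, with a median cell of 253 CPM, and Vip C1ql1 had 418 CPM in 8 cells. The low pooled Gria3 of the Vip family was thus an average over t-types that ranged from hardly any Gria3 to near the IT level of 336 CPM. They did not fall into only these extremes. As a share of the 4 subunits per kb, Gria3 was 0.168% in Vip Mybpc1_2 and 11.6% in Vip Gpc3. It was 1.72% in Vip Mybpc1_1, 2.79% in Vip Serpinf1_1, 4.40% in Vip Sncg and 8.06% in Vip Chat_1. The Gria3 share of the 4 subunits per kb was lowest in Vip Mybpc1_3, at 0.0038%, and highest in L6 CT Pou3f2, at 29.7%, with Sst Etv1 the highest instead when no length was used. The highest of the 17 Vip Mybpc1_3 cells was at 2.87 CPM and the lowest of the 11 Sst Etv1 cells at 396 CPM.

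Gria4 was highest in Sst Pvalb Etv1 (607 CPM) and Pvalb Egfem1 (588 CPM), with 63.6% and 57.6% of reads from 1 cell, and lowest in L6b Ror1 (13.4 CPM, 5 cells, 96.6% from 1 cell). The Gria4 share of the 4 subunits per kb was lowest in L5 PT_4, at 1.05%, and highest in L4/5 IT_1, at 28.1%, followed by Pvalb Egfem1 at 27.8%. The lowest was L5 PT_4 under all 3 length definitions, but with the longest transcript Pvalb Egfem1 was the highest (26.8%, against 23.96% in L4/5 IT_1), as with no length (21.5% against 15.9%). L4/5 IT_2, chosen after its values were seen, had 311 CPM with a read in 32 of 32 cells, from 36.8 to 772 CPM.

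T-types below 10 CPM numbered 46 of 53 for Cacng8, 17 for Cnih3, 5 for Cacng3, 4 for Cacng2 and 2 for Cnih2, beside 4 for Gria3 and 1 for Gria1. Cacng3 was highest in L2/3 IT_3 (360 CPM, 86 cells, median cell 309 CPM) and Sst Calb2 (298 CPM), and lowest in Sst Th_3 with 4 reads over 16 cells (0.179 CPM). Cacng3 was 97.9% of the TARPs per kb in Sncg Npy2r and 0.876% in Sst Th_3. Cacng2 was highest in Pvalb Calb1_1 (125 CPM, 9 cells) and Vip Mybpc1_1 (72.7 CPM, 77.8% of reads from 1 of 8 cells) and lowest in L6b Col6a1 (1.80 CPM, 10 cells), and its TARP share was largest in Pvalb Egfem1, at 84.5%. Cacng8 was highest in Sst C1ql3_2 (18.9 CPM) and L6b Ror1 (15.1 CPM), with 87.4% and 83.7% of reads from 1 cell, and its TARP share per kb was largest in Pvalb Gabrg1, at 26.8%, but with no length in L6b Col6a1, at 18.3%. No Cacng8 read was seen in Sncg Npy2r or Vip Htr1f.

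Cnih2 was highest in Sst C1ql3_1 (203 CPM, 8 cells, 46.2% of reads from 1 cell) and L6b Col6a1 (138 CPM, 10 cells). It was lowest in Pvalb Calb1_1 (4.14 CPM, 9 cells), the t-type in which Cnih3 made up 94.9% of the cornichons per kb. Cnih3 was highest in L5 IT_2 (351 CPM, 7 cells, 69.1% of reads from 1 cell, lowest cell 71.9 CPM) and L4/5 IT_1 (285 CPM, 22 cells). No Cnih3 read was seen in L6b Ror1, Sst Htr1a or Sst Th_1, where 3 reads would have been 0.273, 0.235 and 0.355 CPM, so Cnih2 held all cornichon reads in them.

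The 8 IT t-types, of which only the leading ones fall under the naming rule and the rest were added after their values were seen, differed in Cnih3 by layer. L2/3 IT_3 had 2.72 CPM, with a read in 7 of 86 cells and a highest cell of 67.6 CPM. The 5 t-types of layers 4/5 and 5 ran from 122 CPM in L5 IT_1 to 351 CPM in L5 IT_2, and the 2 of layer 6 had 70.4 and 98.8 CPM. The L5 IT_1 cells ran from 0 to 1272 CPM with a median of 99.8 CPM, and 50 of 61 held a read, and the median L5 IT_1 cell lay above the highest L2/3 IT_3 cell although the ranges overlapped at 0.

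**Figure D3:**
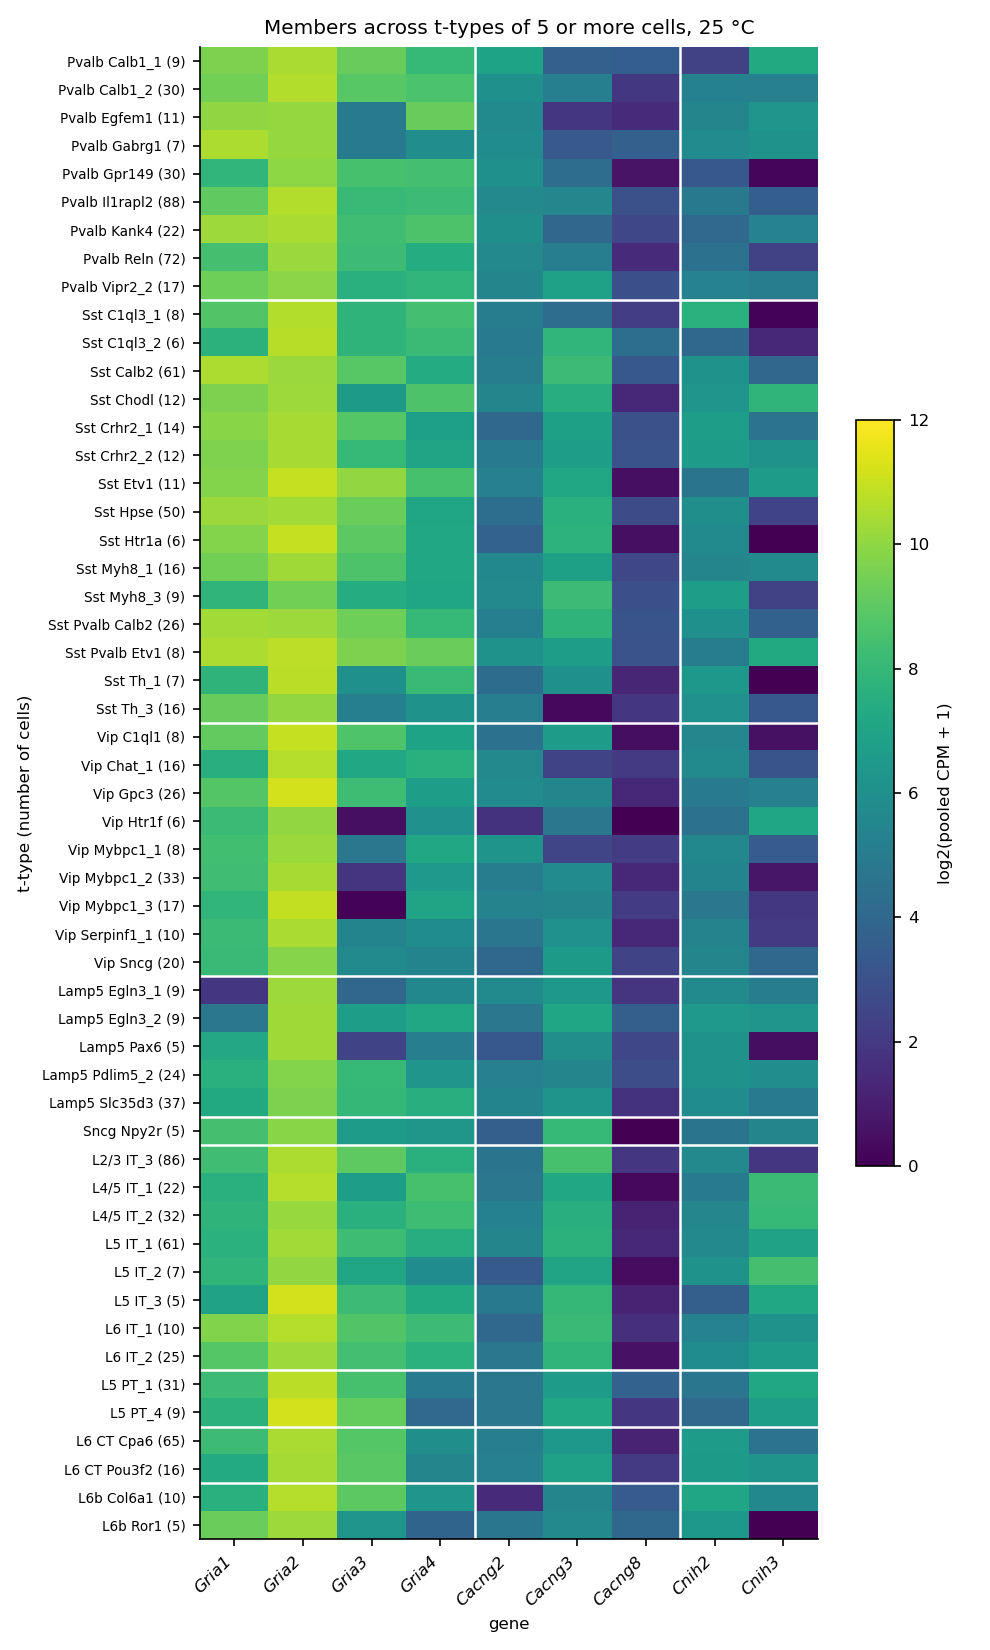
Pooled level of each gene as log2(CPM + 1), from dark (0) to bright (12), in the 53 t-types with 5 or more cells at 25 °C, grouped by family, with numbers of cells in brackets. Gria2 was over 100 CPM in all 53 t-types, Gria3 was near 0 in Vip Mybpc1_3, Vip Mybpc1_2 and Vip Htr1f, and Cnih3 was 2.72 CPM in L2/3 IT_3 beside 122 to 351 CPM in the IT t-types of layers 4/5 and 5.

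Family levels were next compared as ratios. A gene was counted as differing when its pooled levels differed by 2-fold or more after 1 CPM was added, among genes with 10 CPM or more in the higher group. Cacng8 did not reach that level, so 8 of 9 genes could be counted in each comparison. At these thresholds the background shares would give 1 or 2 of 8 genes, so a count of 1 or 2 says nothing about the members as a set and only the single genes are described. The median absolute log2 ratio of the 8 members ran from 0.39 (IT and Sst at 34 °C) to 0.83 (Vip and Lamp5) over the 9 comparisons, and that of all genes counted from 0.35 to 0.49. The members lay below all genes between IT and Sst, at 0.437 against 0.444 at 25 °C and 0.387 against 0.468 at 34 °C. In the other comparisons they lay above. Several comparisons share cells (IT cells recorded at 25 °C enter 5 of them and Sst cells 4), so they are not independent of each other. A within-date count covers the recording dates with cells of both groups. It gives those on which the mean CPM of single cells was higher in one of them. All cells of a side enter that mean together. The ratios rest instead on pooled reads and, for classes, on the mean of families.

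Between excitatory families (mean of IT, ET, CT and L6b) and inhibitory families (mean of Pvalb, Sst, Vip and Lamp5), 2 of 8 members differed, where 17.1% of 11258 genes did, 9.19% higher and 7.88% lower in excitatory neurons. Cnih3 was 80.3 against 29.5 CPM, a log2 ratio of 1.41, and Gria4 was 87.6 against 180 CPM, a log2 ratio of -1.03. The dates were divided for both. Excitatory cells had the higher Cnih3 on 49 of 105 dates and the lower on 37, and Gria4 was higher in inhibitory cells on 63 of 105. When Sncg and NP were added to the means, neither passed, with ratios of 0.81 for Cnih3 and -0.50 for Gria4. In cells recorded before the last calendar year the ratios were 2.74 for Cnih3 and -0.79 for Gria4. There the excitatory mean was of IT and ET only, because CT and L6b had 1 cell each and 5 were required. The change in those ratios is therefore not one of recording year alone. The members under 2-fold had log2 ratios of -0.80 (Gria1), 0.34 (Gria2), 0.59 (Gria3), -0.69 (Cacng2), 0.55 (Cacng3) and 0.41 (Cnih2). The summed levels of 8 astrocyte markers were 362 to 480 CPM in inhibitory and 665 to 1182 CPM in excitatory families (all 8 were read in each family except Sncg, with 1 at 0, and NP, with 5 at 0). Those of 7 oligodendrocyte markers were 218 to 702 CPM and 718 to 1977 CPM, with 3 at 0 in each of Sncg and NP. The part of either in these ratios was not tested.

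Between the MGE-derived families (mean of Pvalb and Sst) and the CGE-derived families (mean of Vip and Lamp5), 3 of 8 members differed, all higher in MGE-derived cells, against 13.2% of all genes. The whole Lamp5 family was placed on the CGE side, although the paper describes the Lamp5 Lhx6 type as putatively MGE-derived. Gria1 was 811 against 235 CPM, a log2 ratio of 1.78, and was higher in MGE-derived cells on 37 of 43 dates. Gria3 was 389 against 162 CPM (log2 ratio 1.25, 28 of 43 dates), and Gria4 242 against 117 CPM (1.05, 28 of 43 dates, with 13 the other way). The Gria4 ratio was 0.56 in cells recorded before the last calendar year and between 0.93 and 0.99 under 5 other settings, so it lay under 2-fold there. The CGE side of those earlier cells held 6 Vip and 8 Lamp5 cells. Under 2-fold were Gria2 (0.09), Cacng2 (0.23), Cacng3 (0.85), Cnih2 (-0.15) and Cnih3 (-0.18).

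Between Pvalb and Sst, 2 of 8 members passed, against 13.1% of all genes, and these were Cacng3 and Cnih2. Cacng3 was 35.005 CPM in Pvalb and 183 CPM in Sst, a log2 ratio of -2.35 or 5.11-fold, and was higher in Sst on 32 of 37 dates. Cnih2 was 25.7 and 69.7 CPM (log2 ratio -1.41), higher in Sst on 25 of 37 dates. Gria1 (log2 ratio -0.69), Gria2 (0.03), Gria3 (-0.61), Gria4 (0.63), Cacng2 (0.89) and Cnih3 (-0.30) were under 2-fold, and the dates were divided for Gria1, higher in Pvalb on 19 of 37 and in Sst on 18. The 8 microglial markers summed to 887 CPM in Pvalb and 675 CPM in Sst, and their part was not tested.

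Vip and Lamp5 differed in 3 of 8 members, against 19.4% of all genes. Gria1 was 318 CPM in Vip and 151 CPM in Lamp5 (log2 ratio 1.07, higher in Vip on 15 of 17 dates), a ratio of 0.93 and so under 2-fold in cells of the last calendar year and of 3.73 in earlier cells. Gria3 was 98.6 and 226 CPM (log2 ratio -1.19, higher in Lamp5 on 11 of 17 dates), and was under 2-fold as a mean of single cells (-0.73) and after thinning (-0.68). Cnih3 was 20.3 and 42.5 CPM (log2 ratio -1.03), but was higher in Lamp5 on 6 dates and in Vip on 9, and fell under 2-fold, at -0.75, without the deepest cell of each family. In the earlier cells, 6 of Vip and 8 of Lamp5, both turned direction, Gria3 to 0.085 and Cnih3 to 3.22. Gria2 (0.80), Gria4 (-0.36), Cacng2 (-0.05), Cacng3 (-0.57) and Cnih2 (-0.86) were under 2-fold. The 8 microglial markers, all of them read, summed to 964 CPM in Vip and 741 CPM in Lamp5, and their part in these ratios was not tested.

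Among excitatory families, 2 of 8 members differed between ET and IT, against 20% of all genes. Gria4 was 26.3 CPM in ET and 222 CPM in IT, a log2 ratio of -3.03 or 8.17-fold, with IT higher on 20 of 22 dates. Cacng3 was 117 and 240 CPM (log2 ratio -1.04), also with IT higher on 20 of 22 dates, but was -0.92 without the deepest cell of each family. Gria1 (0.06), Gria2 (0.73), Gria3 (0.38), Cacng2 (-0.42), Cnih2 (-0.80) and Cnih3 (-0.13) were under 2-fold. Between CT and IT, 4 of 8 members differed, against 20.8% of all genes. Gria4 (log2 ratio -1.97, IT higher on 17 of 28 dates), Cacng3 (-1.43, 21 of 28) and Cnih3 (-1.85, 16 of 28) were lower in CT, and Cnih2 was higher (1.05, 19 of 28). The median log2 ratio of all genes in that comparison was -0.10, and with median-of-ratios scaling the 4 ratios were -1.62, -1.08, -1.50 and 1.39, with none turning direction. Gria1 (-0.11), Gria2 (-0.01), Gria3 (0.47) and Cacng2 (0.07) were under 2-fold. The 7 oligodendrocyte markers, all of them read, summed to 1561 CPM in ET and 1420 CPM in CT against 718 CPM in IT, and their part in these ratios was not tested.

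Between the largest upper-layer and layer 5 IT t-types, L2/3 IT_3 and L5 IT_1, 1 of 8 members differed, against 20% of all genes. It was Cnih3, at 2.72 and 122 CPM, a log2 ratio of -5.04 or 32.9-fold. L5 IT_1 was higher on 10 of 12 shared dates and L2/3 IT_3 on 0. Gria1 was pooled at 314 CPM in L2/3 IT_3 and 201 CPM in L5 IT_1, but L5 IT_1 was the higher on 9 of 12 dates. The other ratios were 0.18 for Gria2, 0.78 for Gria3, 0.16 for Gria4, -0.86 for Cacng2, 0.80 for Cacng3 and 0.02 for Cnih2.

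**Figure D4:**
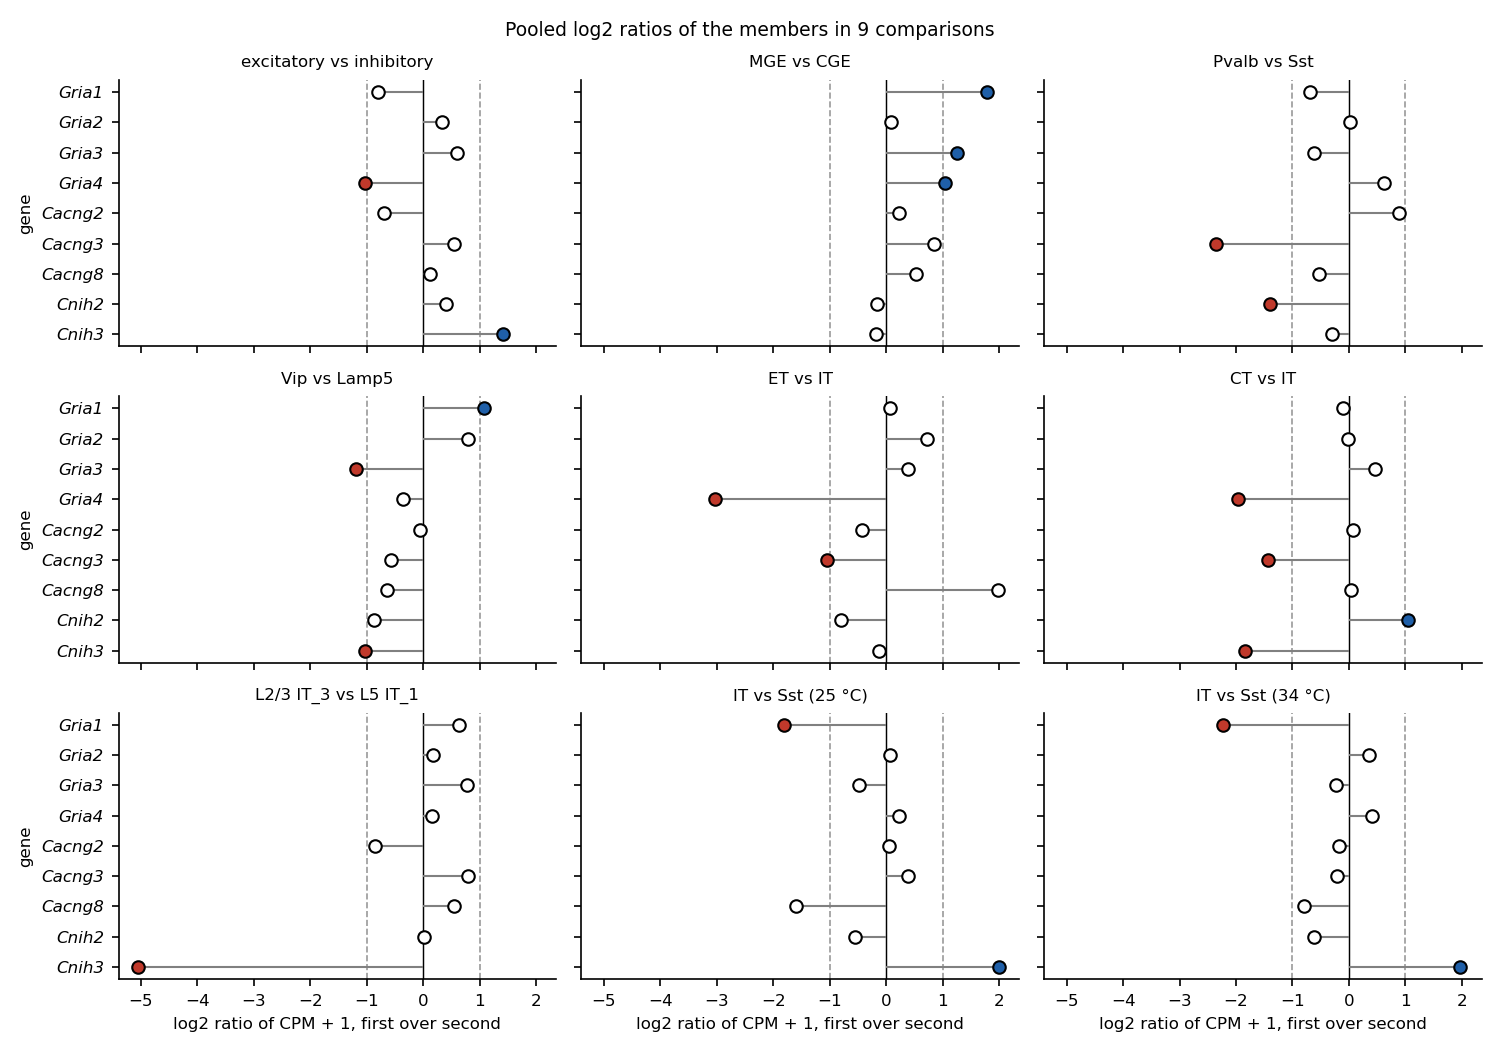
Log2 ratio of pooled CPM + 1, first over second group, for each gene in the 9 comparisons, with dashed lines at 2-fold, filled points for ratios counted (blue first higher, red second higher) and open points for the others. Cnih3 between L2/3 IT_3 and L5 IT_1 lies farthest from 0 at -5.04, followed by Gria4 between ET and IT at -3.03.

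Cells recorded at 34 °C offered a separate set in which to look at IT against Sst, with 43 IT and 110 Sst cells. It is not a like-for-like repeat, because layer 5 was targeted there. Of the 43 IT cells, 29 were L5 IT_1 and 10 were L4/5 IT_2. At 25 °C, 86 of 253 IT cells were L2/3 IT_3, with 2.72 CPM of Cnih3. At 25 °C, 2 of 8 members differed between these families, against 21.3% of all genes. Gria1 was 284 CPM in IT and 1001 CPM in Sst (log2 ratio -1.81, Sst higher on 23 of 28 dates), and Cnih3 was 126 and 30.7 CPM (2.0, IT higher on 17 of 28). At 34 °C, 2 of 8 differed, against 22.8% of all genes, and they were again Gria1 and Cnih3. Gria1 was 151 CPM in IT, with a median cell of 142 and a highest of 520 CPM, and 707 CPM in Sst, with a median of 543 and a highest of 2414 CPM, a log2 ratio of -2.22. Cnih3 was 207 CPM in IT, with a median of 127 and a highest cell of 916 CPM, and 52.5 CPM in Sst, with a median of 0 and a highest of 347 CPM, a log2 ratio of 1.96. The remaining ratios at 25 °C and 34 °C were 0.07 and 0.36 for Gria2, -0.48 and -0.23 for Gria3, 0.22 and 0.41 for Gria4, 0.06 and -0.18 for Cacng2, 0.39 and -0.22 for Cacng3, and -0.55 and -0.62 for Cnih2. For Gria1 and Cnih3, cells of the families overlapped. Their directions were seen on 3 of 3 dates with cells of both families. The intronic counts of the same 34 °C cells gave 681 CPM in IT and 1515 CPM in Sst for Gria1 (log2 ratio -1.15), and 94.7 and 22.6 CPM for Cnih3 (2.02).

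The 12 cells of ET at 34 °C again had little Gria4, at 32.7 CPM, with Gria2 at 1891 CPM and Cnih3 at 186 CPM, and the lowest of them had 89.5 CPM of Cnih3. The 10 Pvalb cells had 699 CPM of Gria1 and 109 CPM of Cacng2.

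For 12 t-types with 5 or more cells at both temperatures (9 Sst, the others IT or ET), the level at 34 °C was set against that at 25 °C. Of the members, 2 of 8 were higher at 34 °C in 10 or more of the 12, against 13.2% of 10873 genes, and 3 of 8 were lower in 10 or more, against 7.43%. The count of 10 was chosen after the values were seen. The 12 t-types are not independent of each other, because all 185 cells at 34 °C were recorded on 8 dates that the t-types share. L5 PT_1 had 5 cells from 1 date there. Gria1 (median log2 ratio -0.45) and Gria4 (-1.07) were lower at 34 °C in 11 of 12 t-types and Gria2 (-0.71) in 10 of 12, where the median of all genes was 0.04. Cacng2 and Cacng3 were each higher in 10 of 12 t-types, both with a median of 0.43. Cnih3 was higher in 9 of 12 (median 0.99), and Gria3 and Cnih2 were lower in 9 of 12 (-0.33 and -0.71). Temperature, the blockers of synaptic transmission, the recording dates, the mice and the cortical depth of the cells all changed together between the sets, so their parts cannot be told apart.

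**Figure D5:**
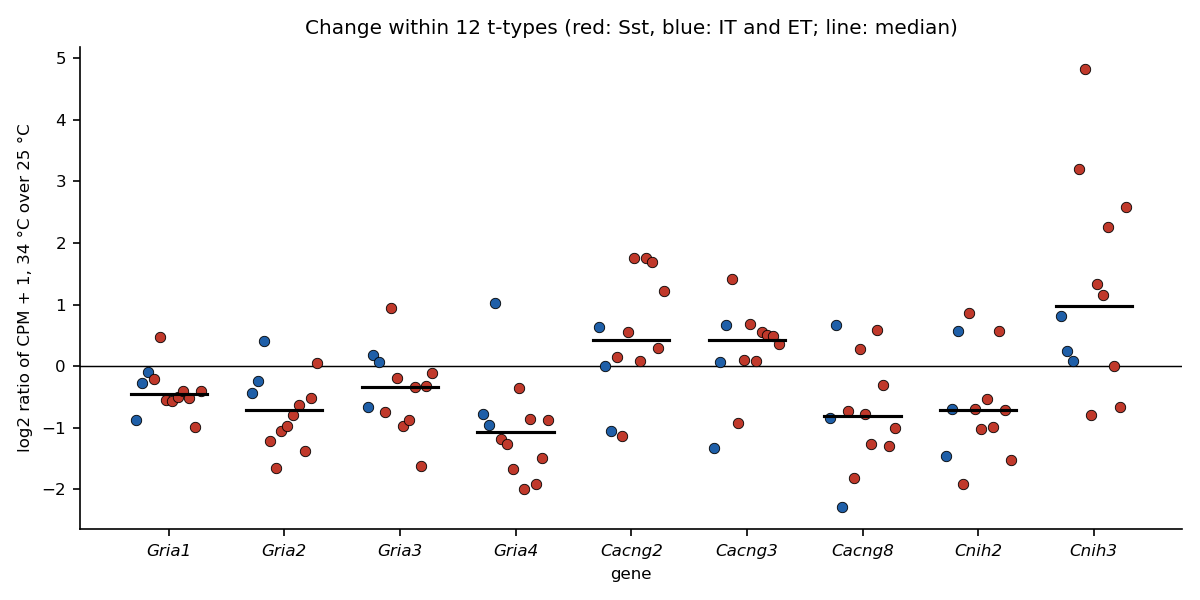
Log2 ratio of pooled CPM + 1 at 34 °C over 25 °C for each gene in the 12 t-types with 5 or more cells at both temperatures (red Sst, blue IT and ET, line the median). Gria1 and Gria4 lay below 0 in 11 of 12 t-types and Cacng2 and Cacng3 above 0 in 10 of 12.

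Other genes of AMPA receptor assembly, anchoring and recruitment were taken from a list of 46, of which 45 were in the table. Between excitatory and inhibitory families, 15 of the 43 that could be counted differed, against 17.1% of all genes, 10 of them higher in excitatory families. The median log2 ratio of the 43 was 0.25, and that of all genes -0.06. The higher genes included secreted or membrane-attached organizers of AMPA receptor clusters, Nrn1 (log2 ratio 5.06), Nptx1 (4.60), Nptx2 (3.46) and Nptxr (1.0). They also included the activity-regulated gene Arc (3.49), the scaffolds Homer1 (2.28), Grasp (2.12) and Dlg1 (2.03), the auxiliary subunit Gsg1l (2.06) and the kinase Camk2a (1.31). The 5 lower genes were the auxiliary subunits Shisa8 (-3.27), Shisa6 (-2.01) and Shisa9 (-1.66), the scaffold Grip1 (-2.58), and Adarb2 (-6.73), a relative of the RNA-editing enzymes.

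In the other comparisons the median log2 ratio of the list lay between -0.12 and 0.38, and that of all genes between -0.10 and 0.04. Between MGE- and CGE-derived cells, 11 of 41 genes differed (13.2% of all genes), 7 of them lower in MGE-derived cells, with Adarb2 (-8.51), Shisa9 (-2.77), Cacng4 (-2.70) and Cacng5 (-2.16) the farthest from 0. Between Pvalb and Sst, 7 of 38 differed (13.1% of all genes), 6 of them higher in Sst, led by Shisa6 (-5.35), the TARP Cacng5 (-3.31), Olfm3 (-3.00) and Nptx2 (-1.86). Between Vip and Lamp5, 12 of 41 differed (19.4% of all genes), led by Shisa6 (6.03) and Shisa8 (4.33), both higher in Vip, then Olfm3 (2.81) and Syndig1 (2.78).

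Among excitatory groups, 10 of 39 genes of the list differed between ET and IT (20% of all genes), 9 of them lower in ET. The neuronal pentraxin genes Nptx1 (-4.71), Nptx2 (-3.39) and Nptxr (-3.01) and the olfactomedin Olfm1 (-2.60) were farthest. Between CT and IT, 7 of 39 differed, a share below the 20.8% of all genes, with Nptxr (-4.16), Abhd6 (-1.53) and Shank1 (-1.30) lower and Nptx1 (1.45) higher in CT. Between L2/3 IT_3 and L5 IT_1, 5 of 39 differed, a share below the 20% of all genes. Gsg1l (3.51) was higher in L2/3 IT_3, and Grip2 (-2.04), Grip1 (-1.88) and Olfm3 (-1.26) were among the 4 that were lower. Between IT and Sst, 19 of 41 differed at 25 °C (21.3% of all genes) and 18 of 40 at 34 °C (22.8%), with Nrn1 (5.67 and 5.99), Shisa6 (-4.60 and -5.32) and Cacng5 (-3.55 and -4.24) among the farthest at both, joined by Nptx2 (3.02) at 25 °C and Shisa9 (3.21) at 34 °C.

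Across the 53 t-types, the members did not move as one set. Pearson's r of log2(CPM + 1) between pairs of members ran from -0.29 (Cacng2 and Cnih2) to 0.39 (Gria4 and Cacng2). The genes of the table whose pattern was most like that of a member, among 11370 searched, were Nceh1 (r = 0.63), Lgi3 (0.62) and Sox6 (0.61) for Gria1, Sptbn1 (0.53), Plekha6 (0.51) and Echdc2 (0.51) for Gria2, Utp15 (0.65), Gm4258 (0.65) and Opcml (0.64) for Gria3, and Plch2 (0.66), Kcnc2 (0.64) and Rnh1 (0.62) for Gria4. For the TARPs they were Luzp1 (0.78), Tbkbp1 (0.64) and Dph3 (0.64) for Cacng2, Cpne5 (0.67), Cyb5a (0.66) and Pde1a (0.59) for Cacng3, and Sertm1, Nyap1 and Dennd4b (each 0.54) for Cacng8. For the cornichons they were Ubald1, Gpm6a and Tceal8 (each 0.57) for Cnih2, and Nsf (0.59), Traf5 (0.59) and Mroh5 (0.58) for Cnih3. These coefficients are descriptions over 53 t-types whose cells were recorded on shared dates and differ in depth, and they were picked as the highest among many.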

How the data were processed

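Exonic and intronic gene counts of single mouse motor cortex neurons were made and deposited by the authors, in 1 table per temperature: Smart-seq2 libraries, 75-base single-end reads, mm10, processed with zUMIs and GENCODE gene models, with STAR 2.5.4b and bcl2fastq 2.20 in the submitters' processing notes. The deposited counts are raw reads per gene. Groups are the t-types in the labels; 9 columns matched no sample and were not used. The 85 spike-in rows (4.69% of counts) were left out. Here the counts of a group were summed to CPM and compared as log2 ratios after adding 1 CPM, a class being the mean of its families of 20 or more cells. Labels name no animal, so each group is 1 sample and no test was run. Only the pooled log2 ratio was tried on simulated counts of known fold, with the cells and depths of ET and IT. The averaging over families was not part of that trial. Depth per cell sets the precision of zeros, so cells were thinned to 200000 reads for shares of cells with a read. Exon lengths and coordinates came from GENCODE M21 on GRCm38. Python 3.11.15, numpy 2.4.6, scipy 1.17.1 and pandas 2.3.3 were used.

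The 9 genes and all lists were chosen with earlier results of these data known. The text names the members in each comparison (Cacng8, below the filter, by its levels only), the highest 2 and lowest 1 t-type per member and the ends of each share, list genes past 2-fold between excitatory and inhibitory families and up to 4 in each other comparison, and the 3 genes of most similar pattern per member. Alternatives were scaling, weighting of cells, depth, deepest cells, recording year, pseudocount, filter and, at 34 °C, intronic counts. The intronic table at 25 °C was not used here.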

Additional observations from a re-analysis of the deposited data

Results flagged for a closer look

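Some results stood apart from the rest. Between IT and Sst cells, Cacng3 had a pooled log2 ratio of -0.22 at 34 °C and 0.39 at 25 °C, and Cacng2 one of -0.18 at 34 °C and 0.06 at 25 °C, so both turned direction between the sets of recordings. All 4 ratios were under 2-fold, and the difference between the sets was not tested. The pools also held different t-types. Of 253 IT cells at 25 °C, 86 were L2/3 IT_3, with 360 CPM of Cacng3. Of 43 IT cells at 34 °C, 29 were L5 IT_1 and 10 were L4/5 IT_2. Within these last t-types, the log2 ratio of Cacng3 at 34 °C over 25 °C was 0.07 in L5 IT_1 and -1.32 in L4/5 IT_2. The part of the mix of t-types in the turned ratios was not tested.

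Cells without a t-type entered no comparison. Of these 92 cells, 59 held at least 1 Gria2 read, against 1177 of 1228 typed cells. Their median was 8.69 CPM of Gria2, against 1238 CPM in typed cells, and their highest cell had 5141 CPM. Their median depth was 236502 exonic reads.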

How the results depend on the processing

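The cells of a group were not divided into replicates, so no replicate could be left out. No paired test was run. Counts of dates within which a direction was seen stand beside the members' ratios of 2-fold or more and few others. Some ratios under 2-fold held on most dates. Gria3 and Cacng3 were each higher in L2/3 IT_3 than in L5 IT_1 on 11 of 12 dates and lower on 1. Of 21 differences of 2-fold or more, 19 kept their direction under every alternative run and 13 also stayed past 2-fold. Between Vip and Lamp5, Gria3 turned to a log2 ratio of 0.085 and Cnih3 to 3.22 with only the cells recorded before the last calendar year at 25 °C (the earlier cells), when 5 of 8 members and 61.7% of all genes passed 2-fold. That setting holds 6 Vip and 8 Lamp5 cells. Gria4 between excitatory and inhibitory families passed 2-fold under 6 of 14 alternatives and Gria4 between MGE- and CGE-derived cells under 5 of 11. The alternatives counted here for single ratios include the filters of 1 and 50 CPM. A filter cannot change a ratio, so those settings repeat the reported value and add no evidence.

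Counts of members moved by over 1.5 times under few settings. Between excitatory and inhibitory families the count was 1 with means of single cells, with thinning, with a pseudocount of 10 CPM and with a mean over t-types, and 0 of 8 with all families of 5 or more cells (20.7% of all genes). It was 5 of 9 between Pvalb and Sst with only the earlier cells, where Cacng8 passed the filter (17% of all genes). Between ET and IT it was 1 without the deepest cell of each family or with a pseudocount of 10 CPM, and 4 of 8 with only the last year, which holds 5 ET cells (53.2% of all genes). Between L2/3 IT_3 and L5 IT_1 it was 2 with only the earlier cells (21.6% of all genes) and 4 with only the last year (51.2% of all genes). Between IT and Sst at 34 °C it was 4 of 9 with intronic counts (39.4% of all genes). Of 30 Gria2 shares recomputed, 22 stayed within the quartiles of cells. The intronic alternatives at 25 °C were not run, and with only the earlier cells CT against IT gave no value. With t-types of 10 or more cells, the highest Gria1 was 1478 CPM and the highest Cnih3 285 CPM. Groups of 5 to 9 cells, and groups with most reads from 1 cell, limit what the lowest levels show.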
